A study of Mus musculus with 5 samples.

Results

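The passage from the hemangioblast to the hemogenic endothelium was followed through the DNaseI hypersensitive sites (DHSs) listed at the 2 stages, short stretches of DNA left exposed to the nuclease. Windows of 500 bp were centred on the middles of the listed sites, and windows that shared at least 25% of their length were joined into 1 region. The 24729 HB and 33305 HE sites, of 135173 sites listed in the 5 stages of the series, gave 42736 regions. Of these, 9431 were listed in HB only, 18007 in HE only and 15298 in both. No region held more than 1 site of the same list. Both populations were derived in culture from embryonic stem (ES) cells of 1 mouse line, of strain 129, that is grown on feeder cells and carries GFP under the control of Brachyury (Bry). Hemangioblasts (HB) were sorted as Bry:GFP+ and Flk1+, and hemogenic endothelium (HE) as Tie2+, cKit+ and CD41-, where the sample label also gives Bry.GFP+. The remaining lists, of mesoderm (MES, Bry:GFP+ and Flk1-), CD41+ hematopoietic progenitors (HP) and CD11b+ macrophages (MAC), serve here only to say where else a region was listed. The label of the MAC list names 2 replicates, whereas the labels of the other lists name none. Each stage was 1 list, so there are no replicates, no difference could be tested against a spread between replicates, and the 95% Wilson intervals given beside shares cover counting error only. A region without a site in a list was not listed there, which does not show that its chromatin was closed.

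The hemangioblast is a mesodermal precursor of endothelial, smooth muscle and blood cells, and it derives from the primitive streak, where the T-box factors Brachyury and Eomes and Wnt signalling act. The hemogenic endothelium is a vessel-lining cell from which blood cells bud once Runx1 is active. Endothelial genes are known to carry ETS and SOX sites in their enhancers, and genes of early blood formation often carry a composite element, in which an E-box for TAL1 stands a fixed distance from a GATA site.

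The DNA of 5 regions over 2 kb from any protein-coding transcription start site (TSS) shows what was compared. The genes are those of the HE sorting marker Tie2 (Tek), of 2 regulators of the endothelial to blood passage (Runx1 and Fli1) and of 2 T-box factors of the streak (T, which encodes Brachyury, and Eomes). The class shown, HE only for Tek, Runx1 and Fli1 and HB only for T and Eomes, was chosen after the values were seen. Within that class the region with the most different motifs in its central 200 bp was taken, and that stretch is given in build GRCm38.p6, on the + strand, with the matched letters in capitals.
Tek, HE only, chr4:94725908-94726107 (+): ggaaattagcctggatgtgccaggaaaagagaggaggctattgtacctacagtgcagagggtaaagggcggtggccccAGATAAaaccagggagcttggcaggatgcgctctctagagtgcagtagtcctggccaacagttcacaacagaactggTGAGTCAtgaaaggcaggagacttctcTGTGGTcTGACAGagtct
Runx1, HE only, chr16:92801719-92801918 (+): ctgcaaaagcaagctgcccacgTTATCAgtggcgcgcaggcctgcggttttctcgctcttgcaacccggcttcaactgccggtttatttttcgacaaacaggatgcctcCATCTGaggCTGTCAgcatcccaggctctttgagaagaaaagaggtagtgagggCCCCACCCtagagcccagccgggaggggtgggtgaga
Fli1, HE only, chr9:32519701-32519900 (+): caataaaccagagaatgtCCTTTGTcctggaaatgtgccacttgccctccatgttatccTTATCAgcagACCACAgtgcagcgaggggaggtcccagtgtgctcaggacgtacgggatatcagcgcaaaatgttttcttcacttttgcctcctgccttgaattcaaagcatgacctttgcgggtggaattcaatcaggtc
T, HB only, chr17:8429579-8429778 (+): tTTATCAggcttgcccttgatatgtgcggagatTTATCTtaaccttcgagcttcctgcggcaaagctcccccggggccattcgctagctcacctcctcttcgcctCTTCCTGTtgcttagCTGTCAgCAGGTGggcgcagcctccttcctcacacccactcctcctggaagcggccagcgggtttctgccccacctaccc
Eomes, HB only, chr9:118468351-118468550 (+): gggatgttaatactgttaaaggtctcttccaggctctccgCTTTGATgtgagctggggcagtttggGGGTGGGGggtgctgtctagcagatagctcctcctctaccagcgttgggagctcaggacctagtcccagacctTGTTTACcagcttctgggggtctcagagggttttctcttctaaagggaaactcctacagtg

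The Tek stretch, 13.3 kb upstream of the gene, held GATA, RUNX, AP1 and MEIS letters and was listed in HE and in no other stage. The Runx1 stretch, in an intron 24.3 kb past the nearest TSS, held GATA, TAL1-type E-box, MEIS and KLF letters and was listed again in HP and MAC. The Fli1 stretch lay in an intron, 21.7 kb past the TSS, and held GATA, SOX and RUNX letters. The T stretch lay 4.74 kb upstream and held GATA, ETS, SNAI-type E-box and MEIS letters. The Eomes stretch, 9.74 kb upstream, held FOX, TCF and KLF letters. An HE-only region of Eomes, 65.9 kb upstream, held TEAD, SOX, ETS and TCF letters in its central 200 bp. Both HB-only stretches were also listed in MES, and in neither HP nor MAC.

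To see how much of the accessible DNA was carried over, regions of the HB list were followed into the HE list. Of the HB regions, 61.9% (61.3 to 62.5) were also listed in HE, and these shared regions made up 45.9% (45.4 to 46.5) of the HE regions. The HE sites were also wider, with a median of 1000 bp in HE-only regions against 700 bp in HB-only regions. Within the shared regions the HE site was the wider one in 13263 of 15298 (86.7%), by a median of 400 bp, and the middles were a median of 100 bp apart. HE sites covered 40.6 Mb and HB sites 23.2 Mb. Read counts do not stand beside the sites, so the depth is unknown from these lists. The excess of HE-only regions goes with the longer HE list. With the widest HE sites cut to the number of the HB list there were 11233 regions of each class, which lists of equal length with 1 site a region must give, and 13496 shared regions. The counts of the 2 changing classes are therefore given as a description of these lists.

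The share carried over differed by position. At promoters, within 2 kb of a TSS, 80.6% (79.9 to 81.3) of HB regions were kept in HE. Between 2 and 20 kb away the share was 49.9%, and beyond 20 kb it was 41.1% (40.0 to 42.3). CpG-rich promoters were kept in 83.5% of cases and other promoters in 69.4%. Over 2 kb from a TSS, HB sites of up to 500 bp were kept in 31.5% (29.9 to 33.1) and those of 1400 bp or more in 74.2% (70.5 to 77.5), so narrow sites were the less often kept. Those also listed in MES were kept in 53.7%, against 34.1% of those absent from the MES list. On chromosome X 85.6% (81.5 to 89.0) of HB promoter regions were kept, against 80.4% on the autosomes. With regions touched by an HE interval counted as kept, these shares were 93.1% and 91.6%.

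Many promoter regions of a single list were overlapping sites whose middles had shifted. The deposited interval of the other list touched 56.9% (54.8 to 58.9) of HB-only promoter regions and 42.2% (40.4 to 44.0) of HE-only promoter regions, although the middles lay too far apart to merge. Over 2 kb from a TSS these shares were 8.12% and 3.65%. The Runx1, Notch1, Hhex, Lyl1, Eomes and Pdgfra promoters each held such a pair of touching regions, 1 listed in HB and 1 in HE. For this reason the promoter status of genes below uses the deposited intervals, and the sequence comparison uses regions over 2 kb away.

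The 3 classes differed in where they lay. Promoters made up 24.2% (23.3 to 25.0) of HB-only regions, 16.3% (15.8 to 16.9) of HE-only regions and 61.8% (61.0 to 62.6) of shared regions, while 3.34% of the genome lies that close to a TSS. With the touched regions left out, the promoter share was 13.0% in HB only and 10.5% in HE only. Distal positions, over 20 kb away, held 45.5% of HB-only and 52.7% of HE-only regions. Introns held 46.3% (45.5 to 47.0) of HE-only and 35.7% (34.8 to 36.7) of HB-only regions. CpG-rich DNA made up 44.0% of HE-only, 67.9% of HB-only and 82.5% of shared promoter regions. Thus HE-only regions were the most distal class and the poorest in CpG.

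**Figure D1:**
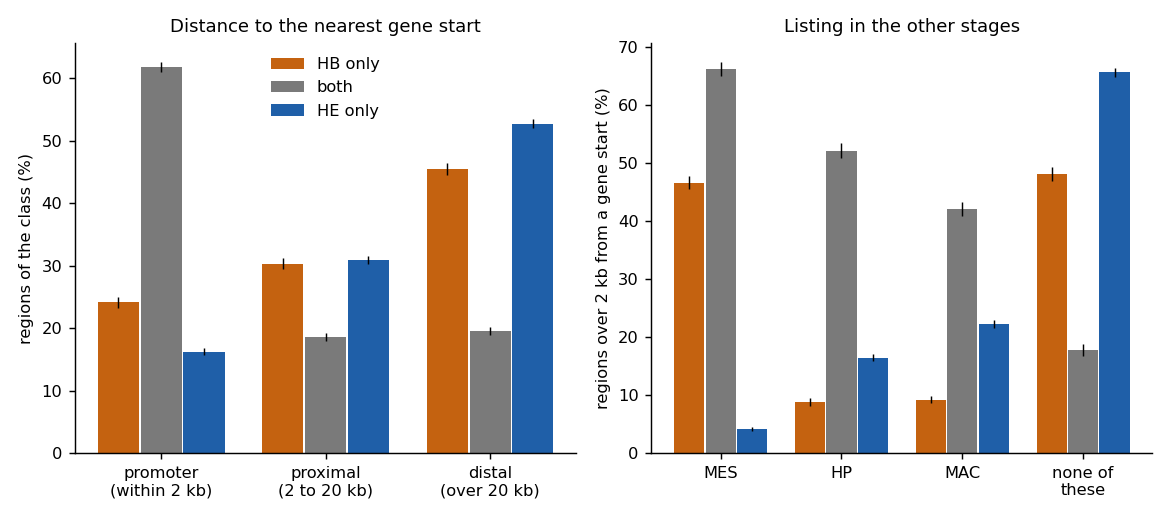
Left, the share of HB-only (9431), shared (15298) and HE-only (18007) regions at 3 distances from the nearest protein-coding TSS. Right, the share of the regions over 2 kb away that were also listed in MES, HP, MAC or none of these; bars are 1 list per stage, and error bars are 95% Wilson intervals. Shared regions were mostly promoters (61.8%), and HE-only regions were mostly absent from all of the MES, HP and MAC lists (65.6%).

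The other lists place the 2 changing classes differently in the differentiation. Over 2 kb from a TSS, 46.6% (45.4 to 47.8) of HB-only regions were already listed in MES, against 4.16% (3.85 to 4.49) of HE-only regions. Of HE-only regions 16.5% (15.9 to 17.1) were listed in HP and 22.3% (21.6 to 23.0) in MAC, and 65.6% in none of these lists. By the study's counts the MAC list held more sites than the HP list. A longer list can overlap more regions, so shares in HP and in MAC are not compared with each other. Of HB-only regions 8.78% were listed in HP and 9.24% in MAC. The order in HP did not hold with promoters included, where 17.8% of HB-only and 16.3% of HE-only regions were listed. There it held with deposited intervals in place of windows, at 19.3% and 21.5%. It also held without regions touched by an interval of the other list, at 8.78% and 16.0%. When every list was reduced to its wider sites, from the median width up, the HP shares were 38.4% of HB-only and 33.0% of HE-only regions. Those in MES were 77.6% and 17.5%. The width of a site went with its listing elsewhere: in HP the share of HE-only regions was 7.35% for sites of at most 700 bp and 32.2% for those of 1300 bp or more. In the same bins the share listed in MES was 5.15% and 3.17%. For HB-only regions the MES share was 32.9% up to 500 bp and 71.2% from 1000 bp.

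To ask which sequences marked each class, both strands of the central 500 bp were searched for 21 short consensus motifs, in all 28066 regions that lay over 2 kb from a TSS. Windows of 500 bp every 5 kb along the genome, also over 2 kb from a TSS, gave the background. The letters searched were ACATTCC or GCATTCC for TEAD, AGATAA or TGATAA for GATA factors, ACAATGG or ACAAAGG for SOX, ACAGGAAG or ACCGGAAG for ETS, GAGGAAGT for PU.1, TGTGGT for RUNX and TGAGTCA for AP1. For the others they were TGTTTAC for FOX, CAGCTG for the MyoD-type E-box, CAGATG for the TAL1-type and CACCTG for the SNAI-type, ATCAAAG for TCF, AGGTGTGA for T-box, ATGCAAAT for the octamer, TGACAG for MEIS, TTTATGG for CDX, CCACACCC or CCCCACCC for KLF, CGTGGGAA for RBPJ, and TTGCGCAA or TTGCACAA for CEBP, with MEF2 and CTCF searched as longer patterns. ETS and PU.1 letters share the core GGAA and can overlap. The SNAI-type E-box, read as CAGGTG on the other strand, shares the letters AGGTG with the T-box, and these can overlap too. Over all of these regions the share with a match was 18.2% for AP1, 6.30% for PU.1, 21.5% for SOX, 7.66% for FOX, 34.0% for RUNX, 45.7% for GATA and 20.4% for TEAD. It was 3.01% for T-box, 8.86% for TCF, 27.9% for the SNAI-type E-box, 2.56% for the octamer, 18.2% for KLF, 1.06% for MEF2 and 4.77% for CTCF. The MyoD- and TAL1-type E-boxes (34.2% and 37.95% of all regions), MEIS (37.9%), CDX (4.99%), RBPJ (1.20%) and CEBP (1.45%) had HE-only to HB-only ratios between 0.955 and 1.14. A match describes the DNA and does not show that a factor was bound.

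ETS letters stood in 18.6% (18.0 to 19.2) of HE-only, 7.98% (7.38 to 8.63) of HB-only and 11.1% of shared regions, against 4.84% of genome windows and 14.3% of all regions. AP1, the motif of Fos and Jun dimers, gave 23.3% (22.7 to 24.0), 10.6% (9.93 to 11.4) and 14.4%, with 7.73% in the genome. The HE-only share was thus 2.33 times (2.14 to 2.54) the HB-only share for ETS and 2.19 times (2.04 to 2.36) for AP1. Searched in reversed order, as a control for base composition, their letters had ratios of 1.09 for ETS and 1.26 for AP1. PU.1 letters, read by the myeloid ETS factor, had a ratio of 2.13 (1.87 to 2.42), and MEF2, a motif of muscle and endothelial genes, one of 2.84 (2.01 to 3.99) on small shares of 1.51% and 0.531%. SOX letters stood in 25.0% of HE-only and 16.8% of HB-only regions, but the same letters in reversed order, which control for base composition, also stood in 23.6% and 14.9%. In the central 200 bp the ratio was 1.72 for SOX and 1.85 for its control, and with both classes weighted to 1 GC distribution the SOX ratio was 1.39. The SOX excess was thus no larger than that of its control, although the control of ACAAAGG itself holds the letters GGAA of the ETS core. Along the regions SOX letters rose from 24.8 per 1000 HE-only regions in the leftmost 50 bp to 36.8 just right of the middle. HB-only regions had 14.7 and 18.6 at these places. Their highest count, 22.0, lay left of the middle (-200 to -150 bp), so they had no central rise. FOX letters had a ratio of 1.38 (1.25 to 1.53) and RUNX letters one of 1.13 (1.09 to 1.18). With both classes weighted to 1 GC distribution the ratio was 1.19 for FOX and 1.10 for RUNX.

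T-box, TCF, SNAI-type E-box and octamer letters had their higher shares in HB-only regions. T-box letters stood in 6.22% (5.69 to 6.81) of HB-only, 1.68% (1.49 to 1.90) of HE-only and 2.52% of shared regions, and in 1.98% of genome windows. The HE-only share was 0.270 times (0.232 to 0.314) the HB-only share. TCF letters, read by the Wnt effectors TCF and LEF1, stood in 13.4% (12.7 to 14.2) of HB-only and 7.19% (6.78 to 7.61) of HE-only regions. The SNAI-type E-box, bound by Snail and Zeb repressors, gave 36.7% (35.6 to 37.9) and 22.9% (22.3 to 23.6). Octamer letters of the Oct factors stood in 3.59% and 2.08%. In reversed order the letters of T-box, TCF and the SNAI-type E-box had ratios of 0.965, 1.22 and 1.07, none of them near the ratios of the motifs. KLF letters had a ratio of 0.671, close to the 0.632 of their reversed control.

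CTCF, the factor at chromatin loop anchors, had its letters in 9.48% of shared, 6.01% (5.48 to 6.59) of HB-only and 2.35% (2.12 to 2.60) of HE-only regions, against 0.243% of genome windows. The ratio of HE-only to HB-only shares was 0.391, and it was 0.153 with the widest HE sites cut to the number of the HB list. HB-only regions with CTCF letters were listed in MAC in 27.7% (23.7 to 32.1), against 8.06% of those without. HE-only regions with CTCF letters were listed in MES in 22.0% (18.0 to 26.6), against 3.73% without. CTCF regions were therefore more often listed again at a stage beyond the neighbouring one than other regions of their class.

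TEAD letters stood in 22.2% (21.2 to 23.2) of HB-only, 19.6% (19.0 to 20.2) of HE-only and 20.5% of shared regions, all above the 11.8% of genome windows. TEADs are the DNA-binding partners of the Hippo effectors YAP and TAZ. The ratio of 0.882 (0.836 to 0.931) went the other way from the 1.29 of the reversed letters. GATA letters were about as frequent in both changing classes, at 46.8% in HB only and 48.6% in HE only, and the ratio of 1.04 turned to 0.954 in the central 200 bp and to 0.895 when both classes were weighted to 1 GC distribution. Shared regions had 37.0% and genome windows 50.0%, and the reversed letters had a ratio of 1.23.

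**Figure D2:**
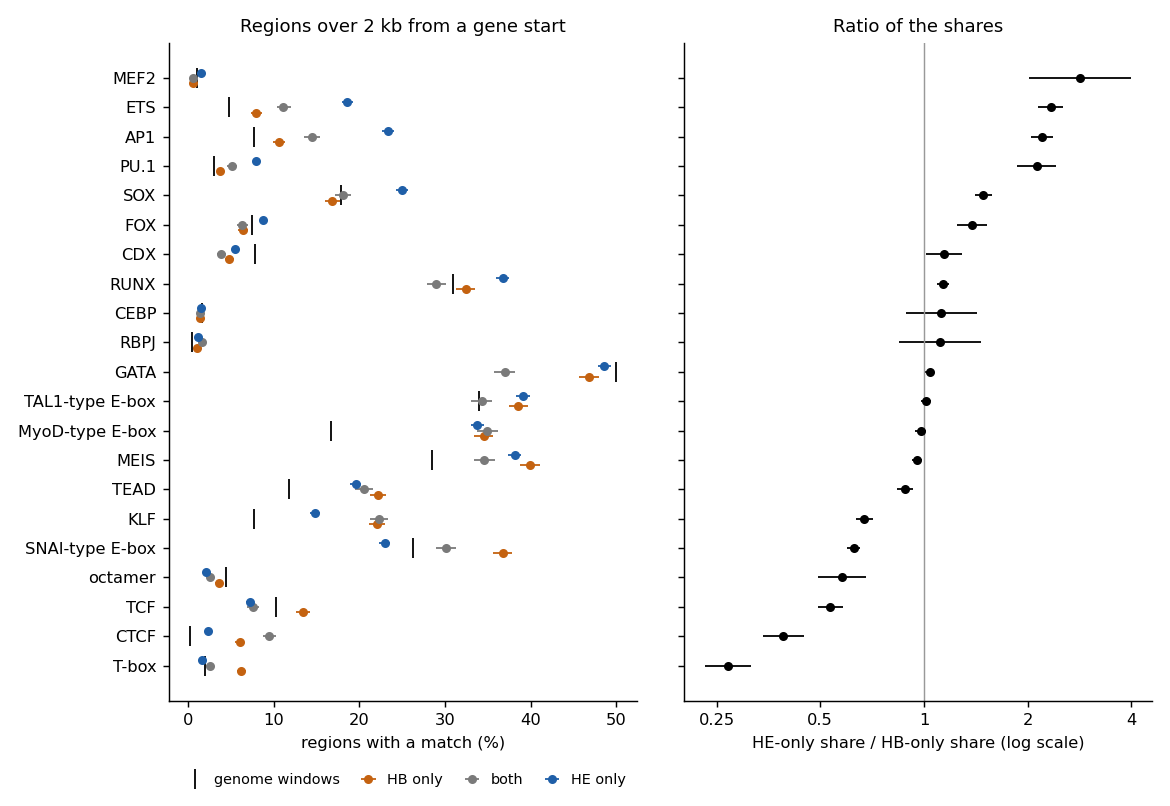
Left, the share of regions over 2 kb from a TSS with at least 1 match to each of 21 motifs, in HB-only (7153), shared (5842) and HE-only (15071) regions, with genome windows as black ticks and 95% Wilson intervals as bars. Right, the HE-only share divided by the HB-only share on a log scale with its 95% interval; ETS (2.33), AP1 (2.19) and MEF2 (2.84) lie to the right, and T-box (0.270) and CTCF (0.391) to the left.

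Matches were also counted around the middle of the regions. In the 50 bp left and right of the middle, AP1 letters were found 36.2 and 40.1 times per 1000 HE-only regions and 15.0 and 13.4 times per 1000 HB-only regions. T-box letters were found 9.09 and 9.37 times per 1000 HB-only and 1.73 and 1.19 times per 1000 HE-only regions. GATA letters had the reverse of their order over 500 bp, with 87.7 and 93.3 matches per 1000 HB-only and 79.1 and 81.6 per 1000 HE-only regions. Restricted to the central 200 bp, the ratio was 2.74 for ETS, 2.55 for AP1, 0.397 for TCF and 0.174 for T-box, each further from 1 than over 500 bp. Pairs of motifs were set against the product of their single shares. Of HE-only regions 8.81% (8.36 to 9.27) had both GATA and ETS letters, against 3.71% (3.29 to 4.17) of HB-only regions, where the products of the single shares are 9.05% and 3.73%. ETS and SOX letters stood together in 4.52% of HE-only and 1.30% of HB-only regions, with products of 4.65% and 1.34%. T-box and TCF letters stood together in 0.0929% and 0.797%, with products of 0.121% and 0.836%. GATA and TEAD letters stood together in 11.4% (10.7 to 12.2) of HB-only regions, above their product of 10.4%, and in 9.54% of HE-only regions, where it was 9.52%. In shared regions they stood together in 9.04% (8.33 to 9.80), also above their product of 7.57%. GATA and SOX letters stood together in 12.8% (12.3 to 13.4) of HE-only regions against a product of 12.1%. They exceeded their product in the other classes too, with 8.56% against 7.86% in HB-only and 7.70% against 6.68% in shared regions. GATA and the MyoD-type E-box stood together in 15.6% (15.0 to 16.1) of HE-only regions against a product of 16.4%. In shared regions GATA and ETS letters stood together in 4.88% (4.36 to 5.46), above the 4.12% of the product.

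The distance between the E-box letters CTG and the GATA letters AGATAA, read on the same strand, separated the classes where the frequency of GATA letters did not. In HE-only regions a gap of 8 bases was found 354 times and a gap of 7 bases 297 times, while the 15 other gaps from 0 to 16 bases had a median of 174 and a range of 140 to 216. In HB-only regions the gaps of 8 and 7 bases were found 87 and 93 times, within the range of 66 to 94 at the other gaps. Shared regions had 100 matches at 8 bases and 69 at 7, against a median of 59 and a range of 44 to 76. Genome windows had no such peak, with 2934 and 3054 matches against a median of 3090.

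**Figure D3:**
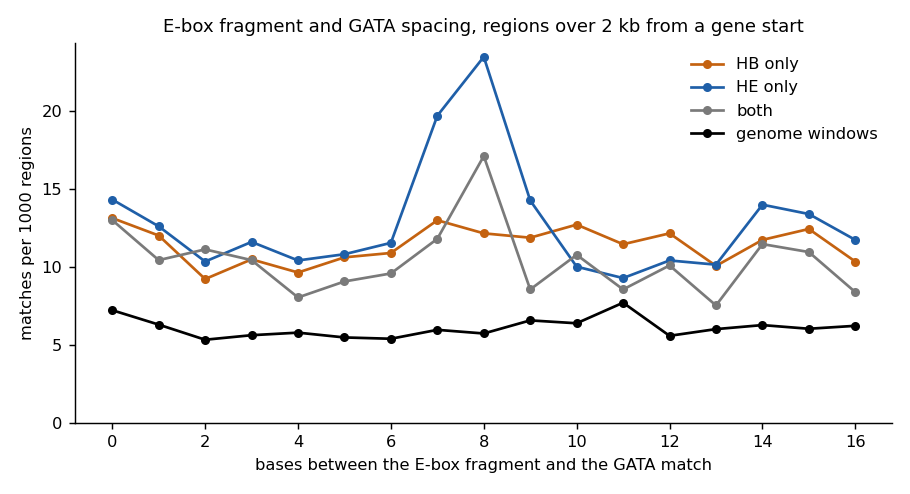
Matches of CTG followed by AGATAA per 1000 regions over 2 kb from a TSS, for each gap from 0 to 16 bases between them, in HB-only, HE-only and shared regions and in genome windows. HE-only regions peak at gaps of 7 (297 matches) and 8 (354 matches), shared regions at 8 (100 matches), and HB-only regions have no peak.

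Composite letters were then sought near endothelial and blood genes, since the spacing result rests on them. The search was made in the regions assigned to the sorting markers and to the genes of the endothelial, VEGF, Notch and blood factor lists described below. Among 180 HE-only regions 10 matches at gaps of 7 or 8 bases were found, at 9 genes, and among 55 HB-only regions 4 matches at 4 genes. These counts are small, and other gaps were not counted near these genes, so the matches show examples and do not compare the classes. In 6 of the HE-only matches, chosen after they were seen, CTG and AGATAA are in capitals and the strand of AGATAA is shown.
Gata2, HE only, chr6:88203176-88203216 (+): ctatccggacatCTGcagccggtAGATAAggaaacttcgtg
Tal1, HE only, chr4:115048344-115048384 (+): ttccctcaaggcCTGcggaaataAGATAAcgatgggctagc
Kit, HE only, chr5:75608072-75608112 (+): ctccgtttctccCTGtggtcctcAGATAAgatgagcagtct
Fli1, HE only, chr9:32549857-32549897 (-): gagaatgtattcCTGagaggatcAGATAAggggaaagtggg
Runx1, HE only, chr16:92856993-92857033 (-): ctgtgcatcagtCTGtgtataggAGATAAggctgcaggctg
Flt1, HE only, chr5:147658062-147658102 (+): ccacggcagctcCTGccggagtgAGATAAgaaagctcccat

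The Gata2 match lies in an intron, 4.60 kb past the nearest TSS, at the composite element known to be needed for Gata2 expression in hemogenic endothelium, and its region was listed in HE, HP and MAC. The Tal1 match, 8.22 kb upstream, was likewise listed in HE, HP and MAC. The Kit, Fli1 and Runx1 matches were listed in none of MES, HP and MAC. The Flt1 match, in an intron, was listed again in HP. Matches in HB-only regions were assigned to Lmo2, Rbpj, Kdr and Zfpm1, and only the regions at Lmo2 and Zfpm1 were listed again in HP.

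T-box letters near streak, cardiac, Wnt and pluripotency genes are shown in the same way, since they set HB-only regions apart. Among 85 HB-only regions of these genes 11 matches were found at 10 genes, and among 81 HE-only regions 2 matches at 2 genes. Of the 11, 2 lay in 1 region at Gsc. These counts near chosen genes are examples, and the classes are compared by the shares over all regions, 6.22% of HB only and 1.68% of HE only. Here 5 of the HB-only matches are given, again chosen after they were seen, with the T-box letters in capitals.
Mesp1, HB only, chr7:79789714-79789745 (+): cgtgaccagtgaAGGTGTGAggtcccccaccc
Mesp2, HB only, chr7:79802760-79802791 (+): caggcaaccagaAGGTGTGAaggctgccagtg
Fgf8, HB only, chr19:45735385-45735416 (+): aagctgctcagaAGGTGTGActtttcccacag
Sp5, HB only, chr2:70443917-70443948 (-): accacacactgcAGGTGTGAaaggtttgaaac
Eomes, HB only, chr9:118421869-118421900 (-): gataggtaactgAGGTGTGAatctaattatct

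Mesp1 and Mesp2, the factors of the earliest cardiovascular mesoderm, had their matches 4.08 kb past the TSS and 8.07 kb upstream. The matches at Fgf8 and Sp5 lay 7.65 and 30.9 kb from the nearest TSS, and that of Eomes 56.2 kb upstream. The regions at Mesp1, Fgf8 and Sp5 were also listed in MES, while those at Mesp2 and Eomes were not. None of the 5 was listed in HP or MAC.

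For several motifs, letters in a region went with its listing at other stages. HE-only regions with RUNX letters were listed in HP in 20.6% (19.5 to 21.7), against 14.1% (13.4 to 14.8) without them, and those with AP1 letters in 22.4% (21.0 to 23.8) against 14.7%. With GATA letters the share was 18.7% against 14.4%, and with SOX letters 13.5% (12.5 to 14.7) against 17.5% (16.8 to 18.2). With PU.1 letters it was 18.8% (16.6 to 21.1) against 16.3% (15.7 to 16.9), where the intervals overlap, and with TEAD letters 18.4% against 16.0%. ETS letters went with 15.8% (14.5 to 17.2) against 16.6% (16.0 to 17.3) in HP, where the intervals overlap too, and with 26.0% against 21.4% in MAC. In MAC, AP1, PU.1, RUNX and SOX letters kept these directions. AP1 letters went with 34.1% (32.6 to 35.7) against 18.7%, PU.1 letters with 36.3% (33.6 to 39.0) against 21.1%, RUNX letters with 24.5% against 21.0% and SOX letters with 19.4% against 23.2%. GATA and TEAD letters turned, with 18.8% against 25.6% for GATA and 16.4% (15.1 to 17.8) against 23.7% for TEAD. HB-only regions with GATA letters were listed in MES in 36.0% (34.4 to 37.7), against 55.9% (54.3 to 57.5) without. They were also less often listed in HP (6.13% against 11.1%) and in MAC (6.04% against 12.1%), so the lower share was not particular to MES. In MES, octamer letters went the other way, with 58.4% (52.3 to 64.2) against 46.2%.

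To describe genes, each region over 2 kb and up to 100 kb from a TSS was assigned to the nearest of 21000 RefSeq protein-coding genes, which need not be the gene it controls, and a gene had a promoter site if a deposited interval came within 1 kb of one of its TSSs. A promoter site was listed in HE and not HB for 1218 genes (5.8%), in HB and not HE for 647 (3.08%) and in both for 11446 (54.5%). At least 1 HE-only region was assigned to 6474 genes (30.8%), and at least 1 HB-only region to 3895 (18.5%). The order of the first 2 counts turned with the widest HE sites cut to the number of the HB list, to 898 genes in HE and not HB and 1024 in HB and not HE. Over all genes there were 2.10 HE-only regions for each HB-only one. Of the promoters listed in HB and not HE, 67.7% (64.0 to 71.2) were listed in MES, and 20.3% in HP. Of those listed in HE and not HB, 20.7% were listed in MES, 16.9% in HP and 26.0% in MAC.

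The sorting markers served as a check of the labels. The T promoter was listed in HB and MES only, and the Tek promoter in HE only, where 4 HE-only regions were assigned to Tek and no HB-only region. The Kdr (Flk1) and Kit promoters were listed in both, and 15 HE-only against 3 HB-only regions were assigned to Kdr. The promoter of Itga2b, which encodes the CD41 that the HE cells were sorted to lack, was listed in HE and HP and not in HB.

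Among the gene lists, endothelial surface and junction genes had the most promoter sites listed in HE and not HB. Of 14 genes, 10 had a promoter site in HE and not HB and 0 in HB and not HE, against 5.8% and 3.08% of all genes. These were Cdh5 (VE-cadherin), Pecam1, Tie1, Eng, Icam2, Robo4, Cd34, Vwf, Plvap and Ecscr. The Cldn5 and Mcam promoters were listed in both, and those of Emcn and Esam in neither. None of the 10 was listed in MES, and 4 were listed in HP, namely Pecam1, Tie1, Icam2 and Plvap. There were 23 HE-only regions assigned to the list against 3 HB-only ones, with 5 against 1 at Cd34 and 4 against 0 at Cdh5. The genes of VEGF and angiopoietin signalling had 28 HE-only and 8 HB-only regions, a ratio of 3.50 where all genes had 2.10. In that list Flt4 (the VEGF-C receptor), Vegfc and Angpt1 had a promoter site in HE and not HB, and 5 of 10 genes in both.

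The endothelial transcription factor genes mostly had their promoters listed at both stages. Of 14 genes, 12 had a promoter site in both and 2, Fli1 and Sox18, in HE only, against 54.5% and 5.8% of all genes. The list had 47 HE-only regions against 4 HB-only ones, and 44 against 1 without touched regions, where the ratio over all genes was 2.10. HE-only regions numbered 14 at Ets1, 9 at Elk3, 6 at Fli1 and 5 at Erg. Of these genes Ets1 had 3 HB-only regions and the other 3 had 0. At Erg the 5 regions lay in introns, 9.98 to 84.3 kb past the TSS, and the region at 9.98 kb held GATA, ETS, AP1, FOX, SNAI-type E-box, CDX and KLF letters. Of those 5, the one at 19.7 kb was also listed in HP and the one at 26.9 kb in MAC.

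Blood transcription factor genes were less one-sided. Of 18 genes, 13 had a promoter site in both lists, Spi1 (PU.1) and Myb in HE only, and Gata1, Gfi1b and Ikzf1 in neither. Of all genes 54.5% had one in both, 5.8% in HE and not HB, and 7689 of 21000 in neither. The list had 34 HE-only and 14 HB-only regions, a ratio of 2.43 that is near the 2.10 of all genes. Meis1 had 7 HE-only regions and 1 HB-only region, while Zfpm1 (FOG1) had 3 and 5. Runx1 had 5 HE-only regions, of which those 24.3, 3.36, 76.4 and 58.0 kb from the nearest TSS were listed in HP, and 3 HB-only regions that were not. Spi1 had no region of a single list over 2 kb away. Its regions 3.62 kb upstream and 4.93 kb past the TSS were listed in both, while its promoter site was listed in HE only.

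Genes of the primitive streak and mesoderm were the list with most HB-only regions. They had 41 HB-only against 19 HE-only regions, 38 against 15 without touched regions, and 14 of 20 genes had more HB-only regions than HE-only ones, as had 2044 of all 21000 genes, and 2 of 20 had more HE-only ones, as had 5213 of all genes. Promoter sites of T, Mesp2, Gsc and Sp5 were listed in HB and not HE, that of Fgf8 in HE and not HB, and 10 of the 20 in both, against 3.08%, 5.8% and 54.5% of all genes. HB-only regions numbered 6 at Eomes, 4 at Lhx1 and 3 each at Mesp1, Gsc, Evx1, Wnt3 and Sp5. Pdgfra, a mesodermal receptor, went the other way with 3 HE-only regions and 1 HB-only region. Promoter sites of the pluripotency genes Sox2, Zfp42 and Fgf4 were listed in HB and not HE, that of Utf1 in HE and not HB, and the list had 10 regions of each class. Cardiac genes had 34 HE-only and 20 HB-only regions, a ratio of 1.70 that is below the 2.10 of all genes. Among them Nkx2-5, Hand2 and Tnnt2 had a promoter site in HE and not HB, and Tbx5 and Smarcd3 in HB and not HE.

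**Figure D4:**
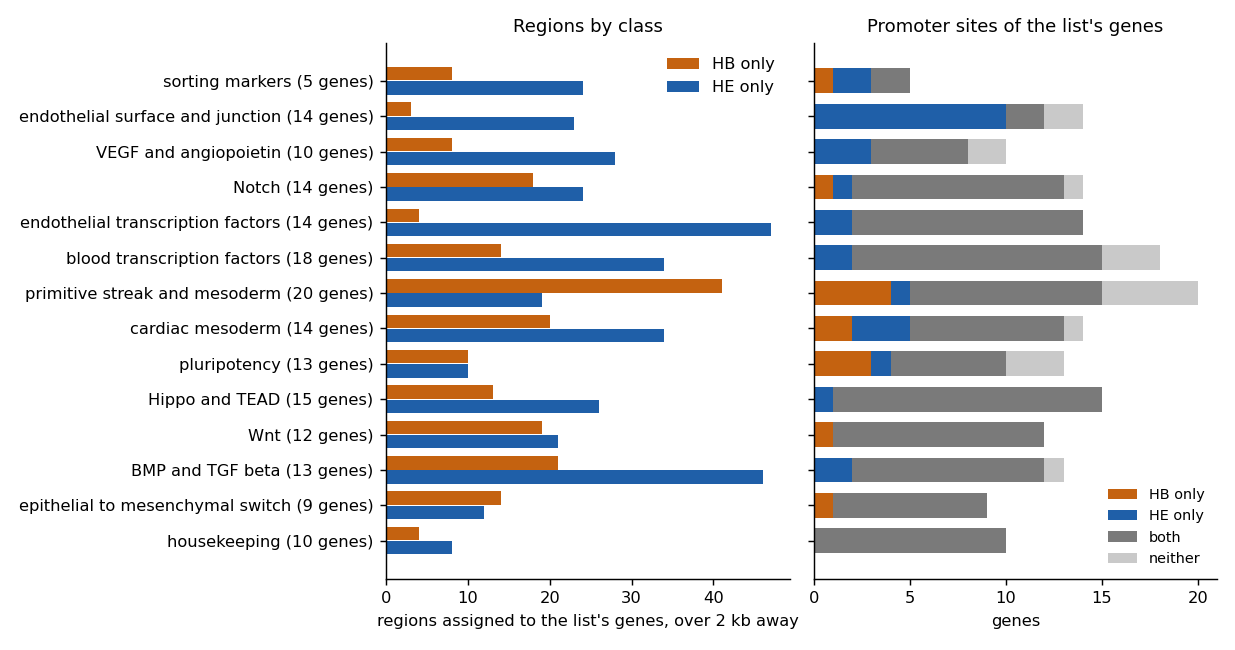
Left, the number of HB-only and HE-only regions over 2 kb and up to 100 kb away that were assigned to the genes of each list. Right, the number of genes of each list with a promoter site in HB only, HE only, both or neither; each stage is 1 list. Endothelial transcription factors had 47 HE-only against 4 HB-only regions, and streak and mesoderm genes 19 against 41.

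Other signalling genes than those of VEGF and angiopoietin had ratios of HE-only to HB-only regions near or below the 2.10 of all genes. The 14 Notch genes had 24 HE-only and 18 HB-only regions, a ratio of 1.33. Among them the receptor Notch1 had 6 HE-only regions against 1, and its target Hes1 had 3 against 6. Notch4, an endothelial receptor, had a promoter site in HE only, Jag2 had one in HB only, and 11 of the 14 genes had one in both. Of all genes 5.8% had a promoter site in HE and not HB, 3.08% in HB and not HE, and 54.5% in both. The 13 BMP and TGF beta genes had 46 and 21, a ratio of 2.19, with 14 HE-only regions at the inhibitory Smad gene Smad7 and 5 HB-only regions against 1 at the ligand gene Bmp2. The 15 Hippo and TEAD genes had 26 and 13, a ratio of 2.00. HE-only regions numbered 4 at each of Tead4, Wwtr1 (TAZ) and Ankrd1, and Yap1 and Tead3 each had 2 HB-only regions and 0 HE-only. The 12 Wnt genes had 21 and 19, a ratio of 1.11, and Axin2, a feedback gene of the pathway, had 1 against 4. Genes of the epithelial to mesenchymal switch had 12 and 14, a ratio of 0.857, with 3 HB-only and 0 HE-only regions at each of Snai1 and Cdh2. All 10 housekeeping genes had a promoter site in both lists, where 54.5% of all genes had one.

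Markers of cells that could accompany the sorted populations were also counted, in short lists, where 5.8% of all genes had a promoter site in HE and not HB, 54.5% in both and 7689 of 21000 in neither. Of 10 fibroblast and feeder genes 1, Prrx1, had such a site, and 5 had none in either list, Dcn and Lum among them. The same list had 8 HE-only regions against 2 HB-only ones, a ratio of 4.0 that is above the 2.10 of all genes, and 4 of the 8 were assigned to the collagen gene Col1a2, whose promoter was listed in both. Of 6 smooth muscle genes 1, Acta2, had a promoter site in HE and not HB, and the list had 1 HE-only and 2 HB-only regions. Of the 6 myeloid markers Itgam, Lyz2, Ptprc and Csf1r had no promoter site in either list, and Mpo had one in HE only. Of 6 megakaryocyte and erythroid markers 2, the platelet genes Pf4 and Itga2b, had one in HE only. A further platelet gene, Gp1ba, had one in both, as had Klf1 and Epor, and Hbb-y had one in neither. Of 6 endoderm and epithelium markers Epcam had one in HB only, and none of the 6 had one in HE only. All 4 neural markers had one in both. The part of such cells in the HE list was not tested.

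Among all genes, the excess of HE-only regions was largest at Palld, an actin-binding protein gene, with 17 HE-only against 4 HB-only regions. Kdr (15 against 3), Tmcc3 (13 against 1), Ets1 (14 against 3) and Smad7 (14 against 3) followed. The next were Jazf1, Mgst2 and Nfib with 11 against 1 each, Zfp217 with 10 against 0 and Asap2 with 9 against 0, which is 1 of 8 genes with an excess of 9, named by its place in the alphabet. The excess of HB-only regions was largest at Pax7, a neural crest and muscle factor gene, with 11 HB-only against 1 HE-only. It was followed by Tle3, a corepressor of TCF factors, with 12 against 3, Fos with 9 against 1, Fbln2 with 7 against 0, and Lmx1b and Sall4 with 7 against 1 each. Adgrb1, Cacna2d2, Clybl and Foxc1 had 5 against 0, and were likewise taken in alphabetical order from 13 genes with an excess of 5. These counts were not divided by the length of DNA nearest to each gene.

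Single loci show how the 3 classes were interleaved. Cdh5 had 4 HE-only regions over 2 kb away, at 59.0, 5.50 and 2.05 kb upstream and 9.35 kb past the TSS, besides 2 at the promoter, and no HB-only region. Those 2.05 kb upstream and 9.35 kb past the TSS were listed in HP and MAC as well. Eomes had 6 HB-only and 4 HE-only regions over 2 kb away, spread over nearly 100 kb upstream and beyond 10 kb downstream, with both classes mixed along it. At T the HB-only regions lay 12.5 and 4.74 kb upstream and at the promoter, and the HE-only region lay 22.4 kb downstream of the TSS. Tead4 had 4 HE-only regions, 4.20 to 73.0 kb past the TSS, and no HB-only region.

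**Figure D5:**
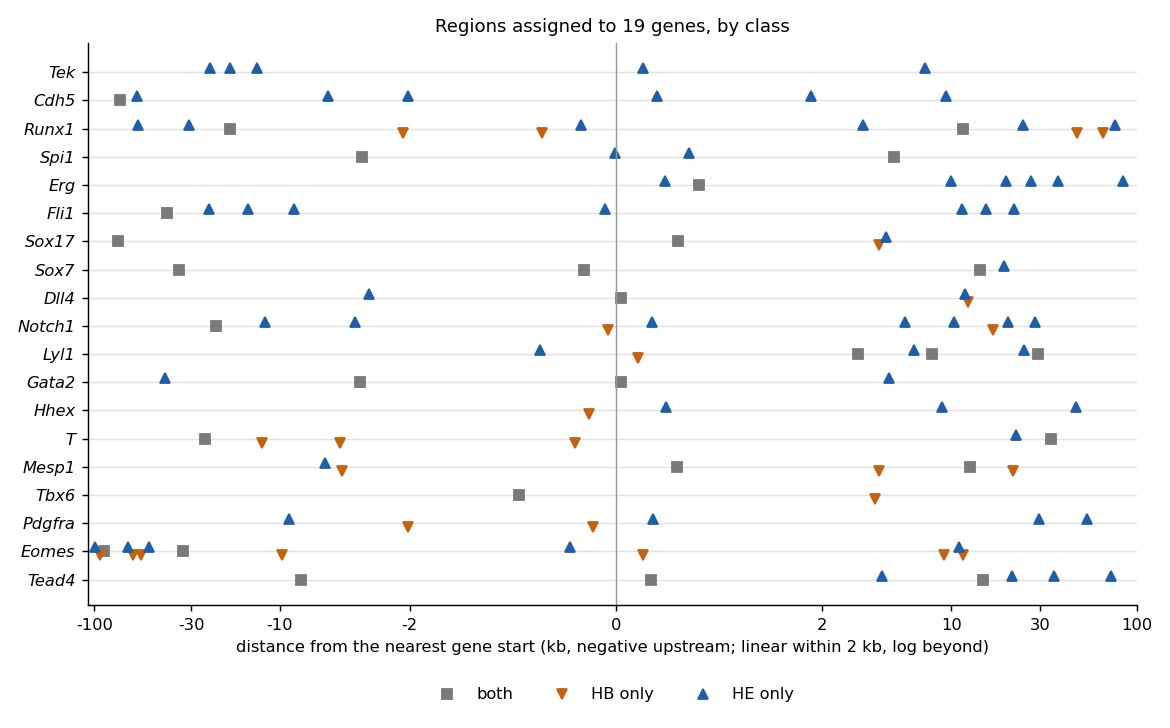
Regions assigned to 19 genes by distance from the nearest TSS (kb, negative upstream, linear within 2 kb and log beyond); squares are regions in both lists, triangles pointing down HB only and triangles pointing up HE only. Erg, Fli1 and Tek hold HE-only regions with no HB-only region, and T has 3 HB-only regions against 1 HE-only.

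The nearest region to each region was then read, among regions at any distance from a TSS. For HE-only regions over 2 kb from a TSS it was HE only in 48.7% (48.0 to 49.5), which lies between the HE-only share of all regions (42.1%) and that of regions over 2 kb away (53.7%). For HB-only regions it was HB only in 28.4% (27.4 to 29.5), where these shares were 22.1% and 25.5%. With promoters included, the nearest to an HB-only region was HB only in 23.9% and HE only in 49.3%. Runs of at least 3 regions of a class, each within 12.5 kb of the next, numbered 549 for HE only and 132 for HB only, and held 12.5% and 6.01% of the 15071 and 7153 regions of each class over 2 kb from a TSS. A class with more regions has more of them within that distance, so these values do not compare the classes. A run of 9 HE-only regions over 48.7 kb lay at Bahcc1, and a run of 5 HB-only regions over 21.2 kb near Sall4.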

How the data were processed

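DNaseI-seq was carried out on sorted cells, and 1 site list was analysed for each of HB and HE. According to the study's methods the authors trimmed reads with CutAdapt, aligned them to mm10 (GRCm38) with Bowtie and took sites from DFilter, run on bins of 100 bp. The submitters' processing notes also name HOMER, and versions are not given in the sources used here. The deposited values are 3 columns, chromosome, start and end in base pairs, with no score or read count, so depth is unknown from them. The middle of a site took the place of its summit, which was not used here.

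Regions were classed as promoter (within 2 kb), proximal (up to 20 kb) or distal from 25999 curated RefSeq TSS positions of 21000 protein-coding genes in GRCm38.p6. CpG-rich meant a GC share of at least 0.5 and observed to expected CpG of at least 0.6 in 500 bp. Listing in MES, HP or MAC used the same minimum overlap, 25% of a window. Motifs were exact matches in the central 500 bp, and the sequences printed near listed genes were sought outside chromosome 18. Analyses used Python 3.11.15 and NumPy 2.4.6, checked on simulated data. Named genes were the members of the fixed lists and the 10 genes with the largest excess of each class. Members, lists and motifs were chosen with earlier results of these data known, and no test was made, with 1 list per stage. Alternatives changed the overlap, the width of sites, the TSS set, the promoter distance, the searched bases and the GC weighting.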

Additional observations from a re-analysis of the deposited data

How the results depend on the processing

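With an overlap of at least 250 bp, 54.9% of HB regions were kept and promoter shares were 31.3% (HB only), 21.0% (HE only) and 60.8% (both). With deposited intervals in place of windows, 69.3% were kept, and the promoter shares were 13.0% and 10.5%, as they were without touched regions, an alternative chosen after seeing the data. When each list was reduced to its wider sites, from the median width up, there were 4461 HB-only, 8354 HE-only and 9633 shared regions, 68.4% were kept, and promoter shares were 38.6%, 30.8% and 80.0%. The widest HE sites, cut to the length of the HB list, gave 11233 regions of each changing class, so the excess of HE-only regions was gone, as lists of equal length require. There 54.6% were kept, promoter shares were 20.5% (HE only) and 67.5% (both), and the order of genes with a promoter site in a single list turned, with 898 in HE and not HB and 1024 in HB and not HE. Sites of at least 900 bp gave 3549 HB-only regions, 74.8% kept, promoter shares of 39.1%, 23.4% and 76.2%, and 2214 and 370 genes with a promoter site in HE only and HB only. Promoters within 1 kb gave 21.2%, 13.4% and 60.1%, and all annotated TSSs 32.5%, 24.2% and 68.6%. Under each of these alternatives that gave both values, the promoter share was lower in HE only than in HB only. The cause of these shifts was not tested.

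The GATA ratio of HE-only to HB-only shares turned to 0.954 in the central 200 bp and to 0.895 with GC weighting, and the MEIS ratio of 0.955 turned to 1.02 in those wider sites. The CTCF ratio of 0.391 fell to 0.153 with the cut HE list. Over all positions 16.3% of HE-only and 17.8% of HB-only regions were listed in HP, and in the wider sites 33.0% and 38.4%. The order was the other way with deposited intervals, at 21.5% of HE-only and 19.3% of HB-only regions. It was so too without touched regions, at 16.0% and 8.78%. The MES share of HE-only regions over all positions, 6.07%, was 17.5% in the wider sites. Of all values for single motifs and listings under the alternatives, those just named included, 96 moved by less than their interval, 63 by more, and the 3 of GATA and MEIS changed direction. The ratios of RBPJ (1.11) and the MyoD-type E-box (0.978), whose intervals hold 1, also crossed 1, to 0.805 in the central 200 bp and 0.973 in the wider sites for RBPJ, and to 1.08 with GC weighting and 1.002 in the wider sites for the E-box; these are counted among the 96 and 63. No paired analysis was possible because each stage has 1 list. Depth, which these values do not give, limits every statement on a site that was not listed, and the lists differ in width and length.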
